A study of Homo sapiens with 4 samples.

Results

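The mitosis and spindle genes are 43 genes chosen by symbol as mitotic cyclins and kinases, checkpoint, kinetochore, kinesin and cytokinesis genes. Each symbol matched 1 of the 34675 rows of a table of the authors' own comparison. The study compared MDA-MB-231, an established human cell line derived from a breast tumour of the triple-negative kind, as a stable line carrying pcDNA-FLAG-LKB1 wildtype and as a stable line carrying pcDNA-Vector. LKB1 is the serine/threonine kinase encoded by STK11, which activates AMPK and its related kinases. There were 2 libraries of total RNA per line, from cells grown on plastic and harvested before they were confluent. Whether a line was a clone or a pool, which promoter drove LKB1 and whether libraries of a line came from separate cultures is not stated in the labels, so a p-value here covers the spread among the 4 libraries alone, and that spread may be technical. Of the 4 libraries, 1 LKB1 library has another run tag in its title than the rest, and the titles write fmRNA for LKB1 and mRNA for vector libraries. Without values per library these differences cannot be told apart from LKB1.

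Cells enter mitosis when cyclin B and CDK1 are activated by CDC25 phosphatases and by the kinases PLK1 and AURKA. Kinetochores then attach chromosomes to the spindle, and the checkpoint holds back the ligase APC/C and its activator CDC20 until every chromosome is attached. Most of these genes are transcribed late in the cell cycle, under the MuvB, B-MYB and FOXM1 complexes and the CCAAT-binding factor NF-Y, so their mRNA in a growing culture follows the share of dividing cells. In bulk RNA, fewer cells in mitosis and less RNA per cell cannot be told apart.

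The header of the table does not say which line was divided by which. STK11 was at a fold above 1, so LKB1 was taken as the numerator (the authors' deposited table gave a log2 fold of 0.62 and an adjusted p of 0.00105, with 2112 reads in the LKB1 line and 1321 in the vector line), and every direction below rests on that. Reads are whole totals per line, its 2 libraries added up, and were worked back out of the deposited folds. They summed to 12273106 in the LKB1 line and 11640792 in the vector line, without the 75 genes whose totals were not recovered. The depth ratio used by the fold was 1.04 and does not come from these partial sums. As sums over 2 libraries, the read totals carry no spread between libraries. For KIF20A, TOP2A, UBE2C and CCNB2 more than 1 pair of totals gave the deposited fold, and the smallest pair is printed. Of 6 mesenchymal markers, CAV1 and AXL rose, MSN fell, and CD44, VIM and ANXA1 did not pass in the authors' deposited table. CD44 had 12579 reads in the LKB1 line and 9732 in the vector line, and MSN had 8787 and 12408. Another 5 markers were ones that a triple-negative mesenchymal line should lack or hold little of. The oestrogen receptor gene ESR1 had 12 reads in the LKB1 line and 8 in the vector line, and PGR had 0 and 4. The other markers had more reads: ERBB2 had 1364 in the LKB1 line and 1104 in the vector line, CDH1 had 278 and 431, and EPCAM had 209 and 152. None of these 5 passed in the authors' deposited table. When the groups were checked for a mix-up of samples, 1 of the 2 did not match the cell line its labels name. Endothelial markers summed to 626 reads in the LKB1 line and 2296 in the vector line, and 7 of the 8 measured fell in the LKB1 line by the authors' deposited table. The one with the fewest reads, TEK, had 4 reads in the LKB1 line and 53 in the vector line, and none was at 0. The part of either of these in the results below was not tested.

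RefSeq promoter windows, from 250 bases before to 50 bases after the start of a gene in GRCh38.p14, were matched by symbol for 36 of the 43 genes. The cell cycle genes homology region (CHR), read by MuvB complexes, was searched as TTTGAA or TTCGAA on both strands, and the NF-Y box as CCAAT on both strands. Each motif was counted on its own, and matches of both may overlap at an end. A CHR match was found in 26 of the 36 windows (72.2%) and in 16.6% of 27305 windows of the same length over all genes. CCAAT matches were found in 27 (75%) and in 35.7% of all windows. Both motifs occurred in 21 windows (58.3%) against 6.58% of all windows. Shown here in capitals are the matches in NDC80, the only gene of the 43 past the threshold, in KIF20A, the next by p, in CCNB2, whose level was close to equal in both lines, and in SPC25, the gene with the highest log2 fold. The windows lie at chr18:2571307-2571606 on the plus strand, chr5:138178862-138179161 on the plus strand, chr15:59104896-59105195 on the plus strand and chr2:168890381-168890680 on the minus strand.
NDC80: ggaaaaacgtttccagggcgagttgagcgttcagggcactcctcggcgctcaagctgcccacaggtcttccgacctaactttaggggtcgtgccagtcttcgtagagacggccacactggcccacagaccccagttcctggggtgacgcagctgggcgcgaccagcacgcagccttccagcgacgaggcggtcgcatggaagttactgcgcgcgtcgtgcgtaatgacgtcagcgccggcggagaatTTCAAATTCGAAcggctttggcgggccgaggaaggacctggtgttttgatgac
KIF20A: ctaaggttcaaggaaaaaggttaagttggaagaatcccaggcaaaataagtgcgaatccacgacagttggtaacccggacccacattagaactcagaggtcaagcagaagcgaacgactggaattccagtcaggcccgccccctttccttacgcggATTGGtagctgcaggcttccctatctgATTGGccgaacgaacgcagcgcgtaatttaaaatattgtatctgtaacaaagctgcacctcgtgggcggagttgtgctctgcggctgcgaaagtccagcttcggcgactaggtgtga
CCNB2: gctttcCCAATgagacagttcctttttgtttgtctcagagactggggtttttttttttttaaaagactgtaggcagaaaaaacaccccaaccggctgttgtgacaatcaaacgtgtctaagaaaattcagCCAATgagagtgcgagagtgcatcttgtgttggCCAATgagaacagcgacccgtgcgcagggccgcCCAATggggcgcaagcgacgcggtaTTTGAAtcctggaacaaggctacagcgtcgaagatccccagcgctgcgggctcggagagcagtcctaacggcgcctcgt
SPC25: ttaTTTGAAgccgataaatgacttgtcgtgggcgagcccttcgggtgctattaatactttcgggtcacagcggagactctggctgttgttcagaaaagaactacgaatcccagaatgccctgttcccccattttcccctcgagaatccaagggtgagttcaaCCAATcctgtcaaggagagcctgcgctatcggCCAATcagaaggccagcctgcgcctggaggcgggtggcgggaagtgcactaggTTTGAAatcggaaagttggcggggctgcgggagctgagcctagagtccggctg
NDC80 held adjoining CHR matches, the first of which began 3 bases before the start, and no CCAAT match. KIF20A held CCAAT matches that began 94 and 67 bases before the start and no CHR match in this window. CCNB2 held 4 CCAAT matches, at 244, 120, 87 and 54 bases before the start, and a CHR match at 29. SPC25 held CCAAT matches at 88 and 56 bases and CHR matches at 247 and 3 bases before the start. The 21 genes with both motifs had a median log2 fold of -0.03 and 12 were below 0, and the other 15 had a median of -0.18 with 11 below 0.

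NDC80, which encodes the microtubule-binding subunit of the outer kinetochore, was the only gene of the 43 with an adjusted p under 0.05, and it fell in the LKB1 line. That is 2.33% of the genes, lower than the background of 12.2% called in 10439 protein-coding genes that had 200 reads or more, as all 43 genes did, and than 5.79% over the whole table. By direction the background was 5.97% lower and 6.2% higher among those protein-coding genes, and 3.24% lower and 2.55% higher over the whole table. At an unadjusted p under 0.05, 9 of the 43 were lower and 1 was higher, beside a background of 12.7% lower and 12.8% higher among those protein-coding genes, and 6.83% lower and 5.62% higher over the whole table. At an adjusted p under 0.01 none of the 43 passed, against 8.24% of those protein-coding genes. None of the 43 reached a fold of 1.5 in either direction, which 11.1% of the protein-coding genes did. Of the 43 log2 folds 27 (62.8%) were below 0, beside 51.5% of the protein-coding genes with at least 200 reads. The 43 log2 folds had a median of -0.12 and a range of -0.58 to 0.34, beside a median of -0.01 over those protein-coding genes. In the same ranges of reads, 56.5%, 49.8%, 45.3% and 44.7% of the protein-coding genes were below 0, at medians of -0.05, 0.001, 0.03 and 0.03. Of the 43 genes, 2 of 3, 6 of 9, 15 of 22 and 4 of 9 were below 0 in these ranges.

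The 43 genes had 227 to 17288 reads over both lines, with a median of 3384, and 40 of them had at least 1000. The library-to-library variation that would give the deposited p-values had a median of 0.104 over 6923 protein-coding genes and of 0.101 over 32 of the 43. Genes with a large deposited p were left out of this step, so both medians rest on genes selected by p. By the authors' edgeR test, the genes of the 43 used had p up to 0.435 (BUB1B), and those left out had p from 0.537 (MAD2L1). With read totals and the median variation of 0.104, the standard error of a log2 fold was 0.15 to 0.19 for 42 of the genes and 0.25 for HMMR. Counting error alone gave intervals that excluded 0 for 34 genes, so the variation between libraries limited the precision more than depth did. Intervals of 95% from both covered 0 for 33 genes and lay within a 2-fold change for 42, and over all 43 they ran from -1.06 to 0.71. Of protein-coding genes at 1000 to 20000 reads, none passed the threshold with a log2 fold smaller in size than 0.41. Smaller differences thus did not pass with 2 libraries a line and p-values adjusted over all rows.

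**Figure D1:**
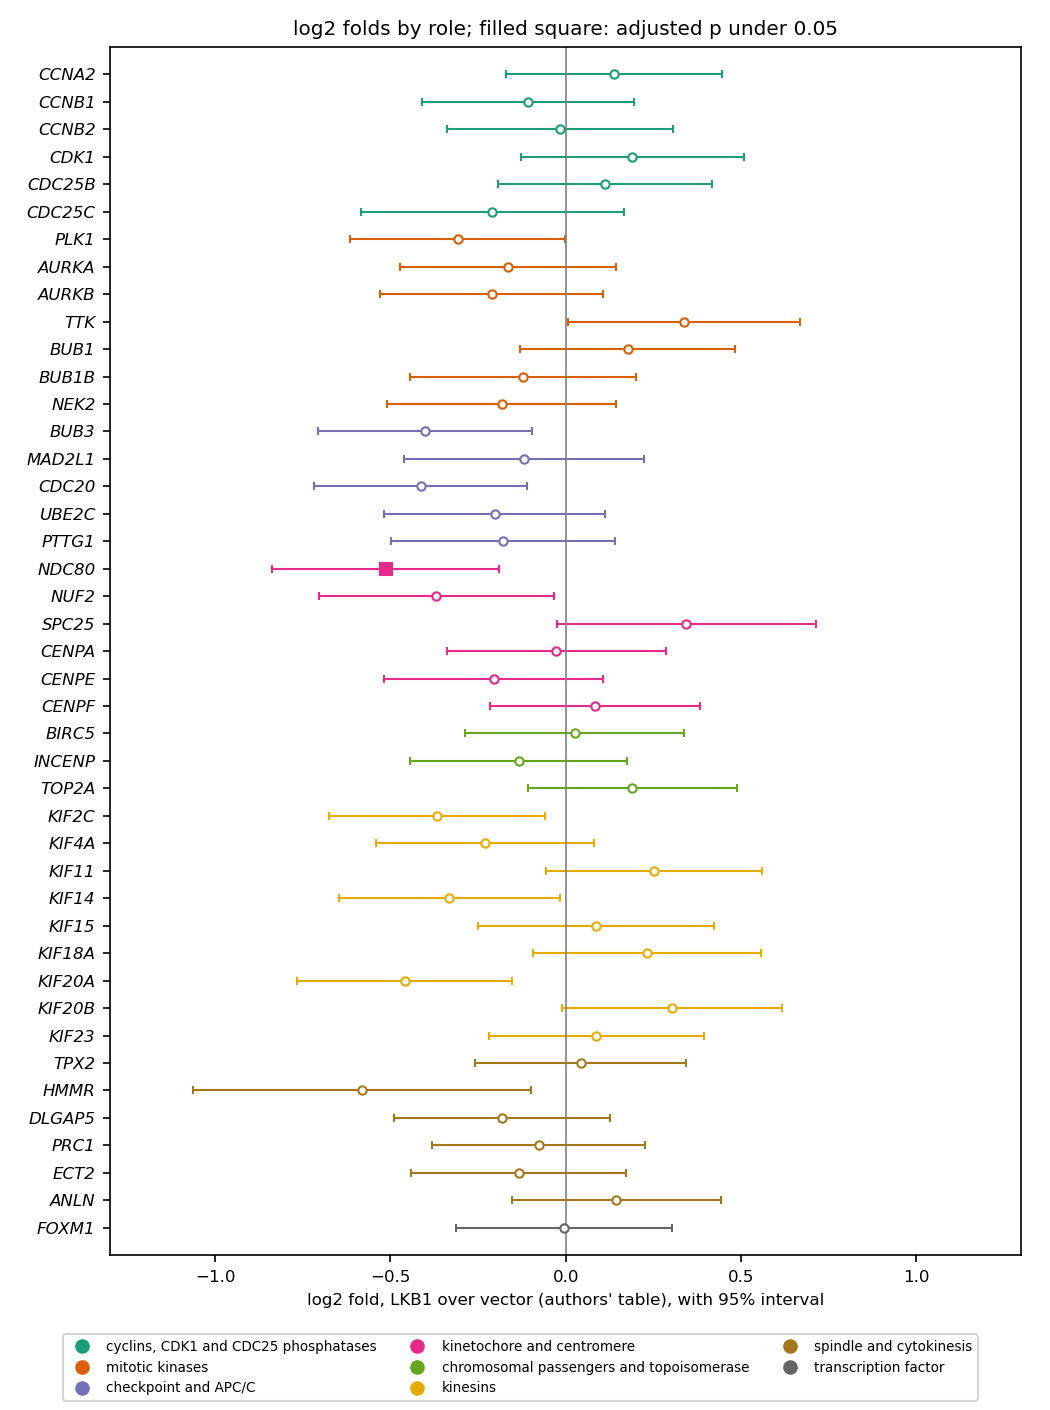
Log2 folds of LKB1 over vector from the authors' deposited table on the horizontal axis for the 43 genes, coloured by role, with 95% intervals from recovered reads and the median implied variation. The filled square marks NDC80 at -0.51, the only gene past the threshold, and 33 of the 43 intervals cover 0.

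Kinetochore and centromere genes included the 1 call. NDC80 (ENSG00000080986.7, chromosome 18, 2571510 to 2616634, plus strand, hg19) had 796 reads in the LKB1 line and 1093 in the vector line. Its fold was 0.701, with a log2 fold of -0.51 and an adjusted p of 0.0308, in the authors' deposited table. The SE of that log2 fold, computed from the read totals as above, was 0.16. With an assumed variation of 0.2 its adjusted p was 0.713 in a negative binomial exact test, which ends the call, and at that setting 3.36% of the protein-coding genes passed. NUF2, the partner of NDC80 in the same complex, had 569 reads in the LKB1 line and 707 in the vector line, at a log2 fold of -0.37 and an adjusted p of 0.313 in the authors' deposited table, here with an SE of 0.17. SPC25, from the other end of that complex, lay on the other side with 379 reads in the LKB1 line and 287 in the vector line (the authors' deposited table gave a log2 fold of 0.34 and an adjusted p of 0.587). The log2 folds of these 3 subunits thus lay on both sides of 0, and the intervals of NDC80 (-0.84 to -0.19) and SPC25 (-0.02 to 0.71) did not overlap, although the difference between the genes was not tested. CENPA, the histone variant that marks centromeres, had 1478 reads in the LKB1 line and 1448 in the vector line. CENPE, a kinesin motor of the kinetochore, had 1436 reads in the LKB1 line and 1593 in the vector line. CENPF, a large protein of the outer kinetochore, had 7099 reads in the LKB1 line and 6441 in the vector line. Log2 folds of these 3 genes were -0.03, -0.21 and 0.08 in the authors' deposited table, each within 2 standard errors of 0.

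The 5 genes grouped here as checkpoint and APC/C each had a log2 fold below 0, at a median of -0.20. None of the 5 passed (2 at an unadjusted p under 0.05). Checkpoint kinases were grouped with the mitotic kinases, and of these TTK (0.34) and BUB1 (0.18) were above 0 and BUB1B (-0.12) below. Of the 16 further APC/C genes described below, 8 were below 0 and 8 above, at a median of -0.01. CDC20, which activates the APC/C at anaphase, had 2475 reads in the LKB1 line and 3172 in the vector line, with a log2 fold of -0.41 and an adjusted p of 0.104 in the authors' deposited table, here with an SE of 0.16. BUB3, which anchors checkpoint kinases at the kinetochore, had 2254 reads in the LKB1 line and 2864 in the vector line (the authors' deposited table gave a log2 fold of -0.40, here with an SE of 0.16, and an adjusted p of 0.101). Neither passed the threshold, and their 95% intervals lay below 0. UBE2C, the conjugating enzyme that works with the APC/C, had 1258 reads in the LKB1 line and 1392 in the vector line. PTTG1, the securin that holds separase inactive, had 999 reads in the LKB1 line and 1088 in the vector line, and no read was found for its near-identical copy PTTG2, between which counting could split reads. MAD2L1, which sequesters CDC20 while chromosomes are unattached, had 521 reads in the LKB1 line and 544 in the vector line. These last 3 genes had log2 folds of -0.20, -0.18 and -0.12 in the authors' deposited table.

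Cyclins, CDK1 and the CDC25 phosphatases lay on both sides of 0, with a median log2 fold of 0.05, and none of 6 passed, also at an unadjusted p under 0.05. CCNB1, the main mitotic cyclin, had 3586 reads in the LKB1 line and 3718 in the vector line, and its relative CCNB2 had 941 and 915. In the authors' deposited table their log2 folds were -0.11 and -0.02. CCNA2, the cyclin of S and G2 phase, had 2293 reads in the LKB1 line and 2005 in the vector line. CDK1, the kinase both cyclin types activate, had 1196 reads in the LKB1 line and 1008 in the vector line. Their log2 folds were 0.14 and 0.19 in the authors' deposited table. Of the phosphatases that switch CDK1 on, CDC25B had 2759 reads in the LKB1 line and 2453 in the vector line, and CDC25C had 286 and 318. CDC25B was at a log2 fold of 0.11 and CDC25C at -0.21 in the authors' deposited table.

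Mitotic kinases had a median log2 fold of -0.17, and none of 7 passed (1 lower and 1 higher at an unadjusted p under 0.05). PLK1, the polo kinase of mitotic entry and spindle assembly, had 2112 reads in the LKB1 line and 2516 in the vector line (the authors' deposited table gave a log2 fold of -0.31 and an adjusted p of 0.357). TTK, the kinase that starts checkpoint signalling, was the gene on the higher side, with 800 reads in the LKB1 line and 609 in the vector line (the authors' deposited table gave a log2 fold of 0.34 and an adjusted p of 0.348). The other checkpoint kinases lay on both sides of 0. BUB1 had 2508 reads in the LKB1 line and 2133 in the vector line, and the related BUB1B had 928 and 972. Their log2 folds were 0.18 and -0.12 in the authors' deposited table. AURKA, the kinase of centrosomes and spindle poles, had 1846 reads in the LKB1 line and 1991 in the vector line. AURKB, the kinase of the chromosomal passenger complex, had 1051 reads in the LKB1 line and 1170 in the vector line. NEK2, a kinase of centrosome separation, had 772 reads in the LKB1 line and 843 in the vector line. In the authors' deposited table AURKA was at a log2 fold of -0.17, AURKB at -0.21 and NEK2 at -0.18.

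The other passenger genes and the topoisomerase had a median log2 fold of 0.03. BIRC5, which encodes survivin, had 1487 reads in the LKB1 line and 1405 in the vector line. INCENP, the scaffold of the passenger complex, had 1800 reads in the LKB1 line and 1899 in the vector line. TOP2A, which untangles chromosomes and is a common marker of cycling cells, had the most reads of all 43 genes, 9380 in the LKB1 line and 7908 in the vector line. Log2 folds were 0.03, -0.13 and 0.19 in the authors' deposited table, and none of the 3 had an unadjusted p under 0.05.

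**Figure D2:**
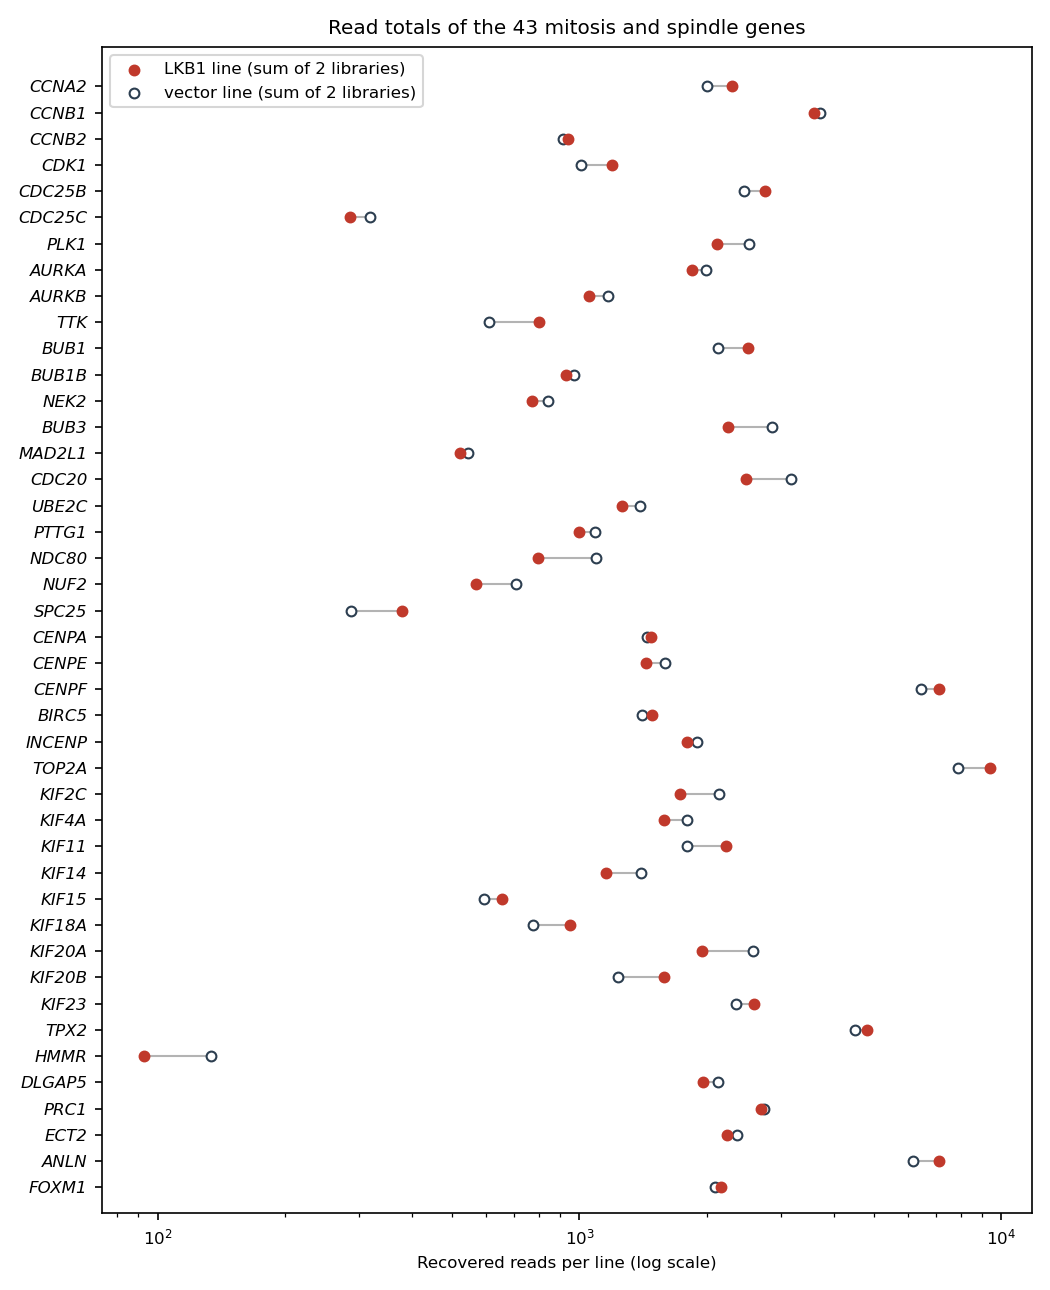
Recovered reads on a log axis for each of the 43 genes, in the order of their roles, as sums over 2 libraries without scaling for the depth ratio of 1.04. Filled points are the LKB1 line and open points the vector line; they lie close together from HMMR (93 and 134 reads) up to TOP2A (9380 and 7908 reads).

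Kinesins spread to both sides of 0, 4 below and 5 above, and none of 9 passed (3 lower at an unadjusted p under 0.05). KIF20A, a kinesin of the central spindle needed for cytokinesis, had 1948 reads in the LKB1 line and 2576 in the vector line. Its log2 fold was -0.46 and its adjusted p 0.0501 in the authors' deposited table, just outside the threshold, here with an SE of 0.16. With p-values adjusted over protein-coding genes of at least 200 reads alone, that of KIF20A was 0.0238, and those of CDC20 and BUB3 were 0.0495 and 0.0478. KIF2C, which depolymerises microtubules at centromeres, had 1730 reads in the LKB1 line and 2146 in the vector line (the authors' deposited table gave a log2 fold of -0.37, here with an SE of 0.16, and an adjusted p of 0.191). KIF14, a kinesin of cytokinesis, had 1158 reads in the LKB1 line and 1402 in the vector line, and KIF4A, a kinesin of chromosomes and the midzone, had 1590 and 1794. They were at log2 folds of -0.33 and -0.23 in the authors' deposited table, and KIF4B, a near-identical copy of KIF4A, had 1 read in the LKB1 line and 0 in the vector line.

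On the other side KIF20B, a relative of KIF20A, had 1587 reads in the LKB1 line and 1237 in the vector line (the authors' deposited table gave a log2 fold of 0.30 and an adjusted p of 0.441). KIF11, the motor that pushes spindle poles apart, had 2228 reads in the LKB1 line and 1799 in the vector line. KIF18A, which dampens chromosome movement, had 949 reads in the LKB1 line and 777 in the vector line. KIF15, a motor that helps KIF11 to keep the spindle bipolar, had 656 reads in the LKB1 line and 594 in the vector line. KIF23, the kinesin of the centralspindlin complex, had 2590 reads in the LKB1 line and 2344 in the vector line. Log2 folds of these 4 genes were 0.25, 0.23, 0.09 and 0.09 in the authors' deposited table, and each interval covered 0.

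Spindle and cytokinesis genes had a median log2 fold of -0.11 and none of 6 passed (1 lower at an unadjusted p under 0.05). That gene was HMMR, a hyaluronan-binding protein of the spindle, with the fewest reads of all 43, 93 in the LKB1 line and 134 in the vector line. It had the lowest log2 fold of the 43, -0.58 with an adjusted p of 0.357 in the authors' deposited table, here with an SE of 0.25. TPX2, which activates AURKA on microtubules, had 4810 reads in the LKB1 line and 4489 in the vector line. DLGAP5, a protein that stabilises kinetochore fibres, had 1957 reads in the LKB1 line and 2135 in the vector line. PRC1, which bundles midzone microtubules, had 2695 reads in the LKB1 line and 2735 in the vector line. These 3 genes were at 0.04, -0.18 and -0.08 on the log2 scale in the authors' deposited table. ECT2, the exchange factor that activates RhoA at the cleavage furrow, had 2234 reads in the LKB1 line and 2358 in the vector line. ANLN, the scaffold anillin of the contractile ring, had 7107 reads in the LKB1 line and 6183 in the vector line. ECT2 was at a log2 fold of -0.13 and ANLN at 0.14 in the authors' deposited table. FOXM1, the factor that drives many of these genes, did not pass the test, with 2165 reads in the LKB1 line and 2090 in the vector line (log2 fold -0.01 in the authors' deposited table, here with an interval of -0.31 to 0.30).

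**Figure D3:**
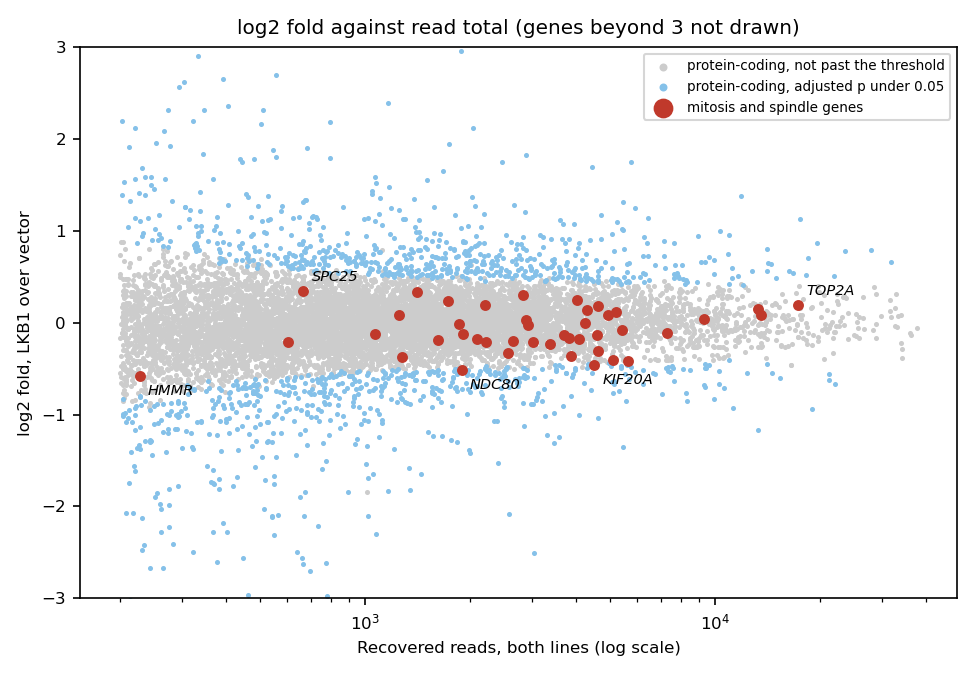
Log2 fold of LKB1 over vector against recovered reads of both lines on a log axis for protein-coding genes with at least 200 reads, with those at an adjusted p under 0.05 in blue and the 43 mitosis and spindle genes in red. The red points lie between -0.58 and 0.34, inside the band of uncalled genes except NDC80.

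Per transcript length, the genes covered a wide range of levels in both lines. Levels as RPKM, computed from the recovered totals and the length of the longest coding transcript, had a median of 47.7 in the LKB1 line and 46.0 in the vector line. They ran from 2.44 (HMMR) to 135 (CCNB1) in the LKB1 line and from 3.71 (HMMR) to 153 (CDC20) in the vector line. In the vector line 39 of the 43 genes lay above the median level of protein-coding genes with at least 200 reads. The summed reads of all 43 were 88506 in the LKB1 line and 87285 in the vector line, which is 7.21 and 7.50 of every 1000 recovered reads. Scaled by the depth ratio of the fold instead, the log2 ratio of these sums was -0.04.

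Read totals of some genes may hold reads of another gene. For 12 of the 43, other genes that overlap their span had at least 10% as many reads. The labels cite a stranded library method, and whether counting used strand is not given in the sources used. KIF20A lies across from BRD8 and CDC23, which had 1081 and 587 reads in the LKB1 line and 1225 and 592 in the vector line. CDC25C, with 286 reads in the LKB1 line and 318 in the vector line, lies across from FAM53C with 829 and 866. BUB1B shares its span and strand with PAK6, which had 444 reads in the LKB1 line and 354 in the vector line. NDC80 overlapped no other gene with reads.

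Folds of the genes went with those of their neighbours on the chromosome. For each gene the median log2 fold of the 24 nearest protein-coding genes with at least 200 reads was taken, and it ran from -0.17 to 0.25. Spearman's rho between a gene's log2 fold and this median was 0.53 over the 43 genes and 0.35 over all protein-coding genes with at least 200 reads, given as a description since neighbouring genes share a region and all genes share the same libraries. Neighbourhoods above 0.1 held 9 of the 43 genes, at a median log2 fold of 0.18 with 6 above 0. SPC25, TTK, KIF20B and KIF11 were among them, with neighbour medians of 0.21, 0.15, 0.18 and 0.17. Neighbourhoods below -0.1 held 5 genes, at a median of -0.20 with 0 above 0. The 29 genes between had a median of -0.13 with 10 above 0. NDC80 lay in a neighbourhood at 0.04, and BUB3 in the one at 0.25, on the other side from its own log2 fold. Relative to their neighbours, the 43 genes had a median of -0.05, with 27 below 0.

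**Figure D4:**
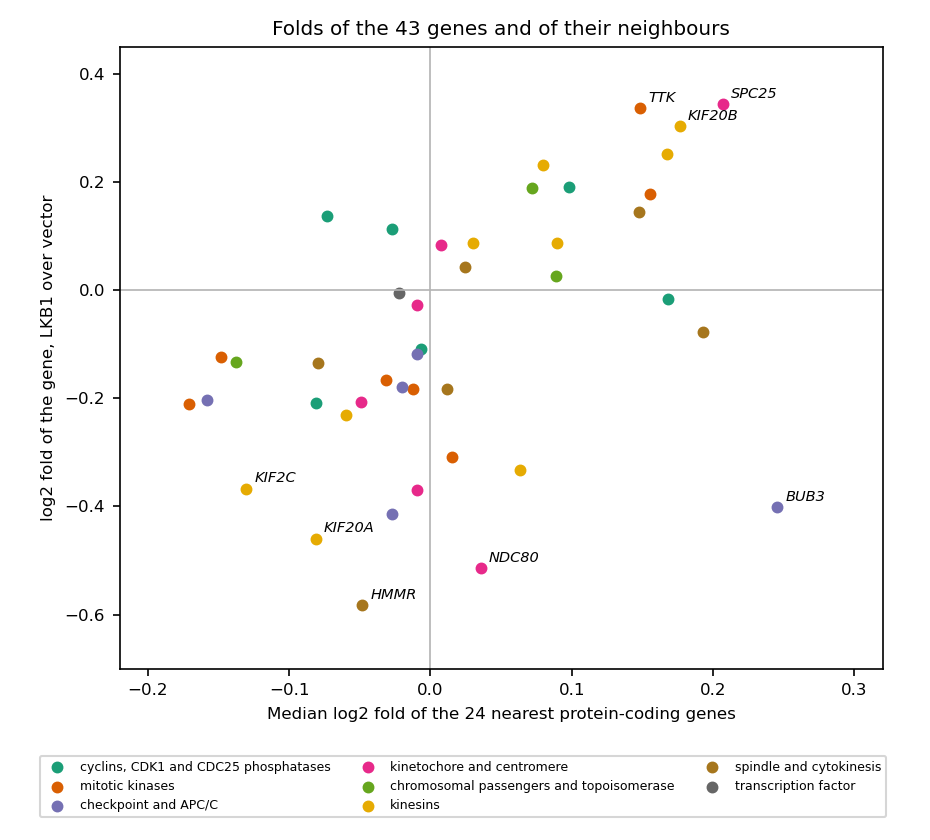
Log2 fold of each of the 43 genes on the vertical axis against the median log2 fold of its 24 nearest protein-coding genes on the horizontal axis, coloured by role. Genes with neighbours above 0.1, such as SPC25, TTK and KIF20B, mostly lie above 0, while BUB3 and NDC80 lie well below their neighbours.

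Base composition was described in the same way. Transcript GC content had a median of 42.3% in the 43 genes and of 48.2% in the protein-coding genes with at least 200 reads, and Spearman's rho of log2 fold with it was -0.24 over the 43 genes and -0.15 over the 10183 protein-coding genes with a value. The 17 genes at 45% GC or more had a median log2 fold of -0.18 with 14 below 0, and the 26 below 45% had one of 0.03 with 13 below 0. Over protein-coding genes the same split gave -0.05 and 0.05. The part of base composition in the difference among the genes was not tested.

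Of 126 further genes in 6 lists, 6 fell and 1 rose at an adjusted p under 0.05 in the authors' deposited table, and 16 were lower and 9 higher at an unadjusted p under 0.05. The share called was 5.56%, against a background of 12.2% of the protein-coding genes with at least 200 reads and 5.79% of the whole table. By direction that background was 5.97% lower and 6.2% higher in the protein-coding genes, and 3.24% and 2.55% over the whole table. At an unadjusted p under 0.05 it was 12.7% lower and 12.8% higher in the protein-coding genes, and 6.83% and 5.62% over the whole table. A median of -0.07 was found for the log2 folds of the 126 genes. Of these 79 (62.7%) were below 0, beside 51.5% of the protein-coding genes with at least 200 reads, which were not matched for read totals. Among 32 kinetochore genes 1 fell, CENPT, which links centromeric chromatin to NDC80, with 180 reads in the LKB1 line and 313 in the vector line (the authors' deposited table gave a log2 fold of -0.85 and an adjusted p of 0.00682). Among 16 APC/C genes 2 fell, the subunits ANAPC7 and ANAPC5, at log2 folds of -0.56 and -0.44 (adjusted p = 0.0139 and 0.0404 in the authors' deposited table). ANAPC7 had 878 reads in the LKB1 line and 1241 in the vector line, and ANAPC5 had 1926 and 2518.

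Of 30 spindle, centrosome and cytokinesis genes 2 fell and 1 rose. CIT, the citron kinase of the midbody, had 2291 reads in the LKB1 line and 3248 in the vector line (the authors' deposited table gave a log2 fold of -0.56 and an adjusted p of 0.00685). GTSE1, a microtubule-binding protein of G2 and mitosis, had 695 reads in the LKB1 line and 979 in the vector line (the authors' deposited table gave a log2 fold of -0.55 and an adjusted p of 0.013). CKAP5, a microtubule polymerase of spindle poles, rose, with 8851 reads in the LKB1 line and 6070 in the vector line (the authors' deposited table gave a log2 fold of 0.49 and an adjusted p of 0.0133). None of the 21 cohesin, condensin and separase genes passed the authors' edgeR test (3 higher at an unadjusted p under 0.05), nor any of the 11 entry switches (1 higher). Of 16 MuvB, MYB and E2F regulators and their companions 1 fell, CDKN1A, which encodes the CDK inhibitor p21, with 684 reads in the LKB1 line and 937 in the vector line (the authors' deposited table gave a log2 fold of -0.51 and an adjusted p of 0.0216). CENPT, ANAPC7, ANAPC5 and CIT lay among neighbours at medians of -0.18, -0.16, -0.22 and -0.22, and CKAP5 among neighbours at 0.13, each on the side of the gene's own log2 fold. GTSE1 and CDKN1A, which fell, lay among neighbours at 0.09 and 0.05. With a variation of 0.2 assumed, 0 of these 7 genes passed the negative binomial exact test.

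**Figure D5:**
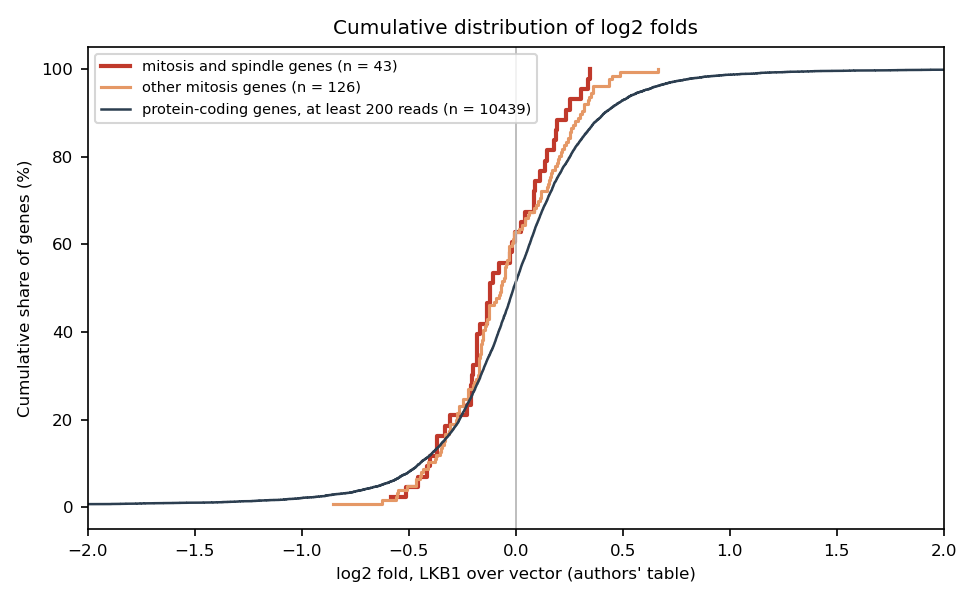
Cumulative share of genes, in percent, by log2 fold of LKB1 over vector for the 43 mitosis and spindle genes, the 126 further mitosis genes and 10439 protein-coding genes with at least 200 reads. Both mitosis curves rise within a narrower range, with medians of -0.12 and -0.07, than the protein-coding genes, with a median of -0.01. The protein-coding genes were not matched to the mitosis genes for read totals.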

How the data were processed

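RNA was measured in 2 LKB1 and 2 vector libraries. The data are a table of the authors' comparison, with no value per library and 0 columns left unused. Per the submitters' processing notes the tools were edgeR 2.6.0, TopHat2 2.0.6 and CASAVA 1.8.2 on hg19, with no roles given. The counter, annotation and filters are not given in the sources used. For each gene the authors deposited, per the file headers, a p-value, an FDR, a fold as a linear ratio and that fold on the log2 scale. The adjusted p-values equal a Benjamini-Hochberg adjustment over all 34675 rows to within 1.89e-06, and 0.05 was the threshold. The authors' fold adds 0.255 reads in the LKB1 and 0.245 in the vector line. With these priors 28167 of 28242 genes with reads (99.7%) gave whole read totals up to 20000 per line. In a subset of 1500 genes 1494 did, against 130 to 176 with slightly altered priors. Where more than 1 pair matched the smallest was taken, and 52 unresolved protein-coding genes were counted as above the read minimum of 200.

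Standard errors combine read totals and the median implied variation. The alternative test was a negative binomial exact test on read totals with an assumed variation. The recovery of read totals, the implied variation and this test were tried on simulated data. There the test was given the variation used to simulate the data, so a wrongly assumed variation was not tried. The standard errors were not tried on simulated data. Transcripts of GENCODE 29, joined on the Ensembl gene identifier, gave GC content and length for 97.5% of background genes. Work was done in Python 3.11.15 with scipy 1.17.1. Full statistics were given for genes past the threshold and for the 6 members with the smallest p, and in each other list every gene past the threshold, up to 6, was named. No test with replicate counts was run, since there are no counts per library. The members and lists were chosen with earlier results of these data known. Intervals cover at most counting error and the median implied variation, and read totals carry no measure of spread. Reads are also not independent molecules.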

Additional observations from a re-analysis of the deposited data

How the results depend on the processing

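The number of mitosis and spindle genes past the threshold was 1, with NDC80 lower, and other settings moved it between 0 and 4, never with a gene higher. It was 0 at an adjusted p under 0.01, at a fold of at least 1.5 and with an assumed variation of 0.2. It was 2 at an adjusted p under 0.1 and with an assumed variation of 0.1, and 4 when p-values were adjusted over protein-coding genes with at least 200 reads or over genes with at least 40 reads. The share of these protein-coding genes called was 8.24% at 0.01, 14.7% at 0.1, 15% adjusted among themselves, 14.5% at a variation of 0.1 and 3.36% at 0.2. No such share was computed for the adjustment over genes with at least 40 reads. Nor was one computed for the threshold joined with a fold of at least 1.5. Of the further mitosis genes 7 passed, 2 at an adjusted p under 0.01 and 0 with a variation of 0.2. At an adjusted p under 0.1 it was 9 (7 lower and 2 higher), and with a variation of 0.1 it was 8 (7 lower and 1 higher). Adjusted over protein-coding genes with at least 200 reads it was 10 (7 lower and 3 higher). The cause was not tested.

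The median log2 fold of the 43 genes, -0.12, was -0.054 relative to 24 neighbouring genes and -0.11 to -0.15 under the other 7 settings, of which the removal of the GC trend and of overlapped genes were chosen after seeing the data. Among these settings, minimums of 40 and of 200 reads removed none of the 43 genes and so could not change the median. The median was below 0 in each setting, while single genes near 0, such as FOXM1, changed sign. Thus 26 of the 43 were below 0 after recentring on protein-coding genes or removal of the GC trend. Leaving out a library could not be run without values per library. No paired analysis was possible because the table holds 1 comparison and the labels give no shared replicate numbers.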

Other observations

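Named here after their values were seen, some further regulators of the cell cycle had adjusted p-values of 0.0804 to 0.123. RBL1, which encodes the p107 subunit of the repressive MuvB complex, had 1128 reads in the LKB1 line and 801 in the vector line (the authors' deposited table gave a log2 fold of 0.44 and an adjusted p of 0.0804). UBE2S, which extends ubiquitin chains for the APC/C, had 1052 reads in the LKB1 line and 1367 in the vector line (the authors' deposited table gave a log2 fold of -0.43 and an adjusted p of 0.0902). TRIP13, an ATPase that disassembles the checkpoint complex, had 774 reads in the LKB1 line and 545 in the vector line (the authors' deposited table gave a log2 fold of 0.45 and an adjusted p of 0.101), among neighbours at a median of 0.30. The cohesin regulator PDS5B had 712 reads in the LKB1 line and 507 in the vector line (the authors' deposited table gave a log2 fold of 0.43 and an adjusted p of 0.123). Further from the threshold, MKI67, the proliferation marker Ki-67, had 9893 reads in the LKB1 line and 7976 in the vector line (the authors' deposited table gave a log2 fold of 0.25 and an adjusted p of 0.52), among neighbours at a median of 0.30.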
